A study of Mus musculus with 6 samples.

Results

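Genes for the proteins of the large (60S) ribosomal subunit were examined in mouse bone marrow-derived macrophages, in 3 libraries labelled Mettl3-/- (KO) and 3 labelled wild type (WT). They were chosen by symbol alone, as rows named Rpl or Rplp followed by the number and letter of the subunit protein, with rows named as pseudogenes left out. This gave 54 of the 55401 rows: 46 canonical subunit genes, 6 paralogs and 2 rows that the deposited data list as processed pseudogenes (Rpl6l and Rpl32l). The cells came from femur and tibia marrow of C57BL/6 mice after lysis of red cells. All 6 cultures grew in medium with 10% serum and 40 ng/mL M-CSF, the growth factor that drives macrophage differentiation, for 7 days. The labels call this the time before a treatment and name none. They do not say whether the knockout is in the whole body or in 1 lineage, which part of Mettl3 was changed, or whether the libraries of a group came from separate mice. The p-values therefore measure the spread between these libraries, which may be technical.

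Mettl3, which encodes the methyltransferase that places N6-methyladenosine in mRNA, did not follow its label. It had 2.50, 2.56 and 2.93 FPKM in the libraries labelled KO, against 2.62, 2.91 and 2.26 FPKM in WT libraries (edgeR log2 fold change 0.02, SE 0.114; adjusted p = 0.93). A value for the whole gene would not show the loss of a single exon. Every direction below is thus between libraries as labelled. Depth ran from 67280390 to 77997742 estimated counts per library. Macrophage markers summed to 8523 to 8616 FPKM in libraries labelled KO and to 16495 to 16842 FPKM in WT libraries. Lyz2, the lysozyme of myeloid cells, held most of that sum (6012 FPKM in libraries labelled KO, 14189 FPKM in WT), and Csf1r, the M-CSF receptor, was higher in libraries labelled KO (log2 fold change 0.26, edgeR adjusted p = 3.14e-05). Of the 8 macrophage markers, 2 were called lower and 3 higher in libraries labelled KO. T and NK markers summed to 6.35 to 6.51 FPKM in libraries labelled KO and 5.05 to 5.73 FPKM in WT, and B markers to 4.60 to 5.25 FPKM in libraries labelled KO and 3.85 to 4.34 FPKM in WT. Neutrophil and precursor markers summed to 9.29 to 9.83 FPKM in libraries labelled KO and 9.83 to 11.1 FPKM in WT, although Mpo, the myeloperoxidase of precursors, was called higher (0.553 FPKM in libraries labelled KO, 0.197 FPKM in WT, log2 fold change 1.46, edgeR adjusted p = 0.0238). Stromal markers summed to under 2 FPKM in every library, and the haemoglobin genes Hba-a1 and Hbb-bs had a count of 0 in all 6. Dividing-cell markers, which can move with ribosomal protein mRNA, summed to 18.1 to 19.98 FPKM in libraries labelled KO and 18.5 to 20.5 FPKM in WT, and 0 of the 5 were called by edgeR, DESeq2 or limma, with 1 at an unadjusted p under 0.05 in edgeR. The part of these cell types in the results was not tested.

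The large subunit joins amino acids at its catalytic centre, which is made of ribosomal RNA, and releases the growing chain through an exit tunnel lined in part by proteins. Most of its proteins are present once in each particle, are assembled with RNA in the nucleolus, and are degraded when left unassembled. Their mRNAs begin with a run of pyrimidines, the terminal oligopyrimidine (TOP) motif, through which mTOR signalling and LARP1 govern their translation and stability. In mammals these genes have also left many processed pseudogenes, whose sequences can take up reads of the parent mRNA.

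To show the pyrimidine runs near the annotated starts of these genes, 60 bases around the start are given for 5 genes that were lower in libraries labelled KO (Rpl11, Rpl4, Rpl19, Rpl35 and Rpl13) and for Rpl36al, the 1 gene that was higher. Sequences are from RefSeq on GRCm38.p6, the transcribed strand, 5′ to 3′, with 30 bases on each side of the start. Capitals mark the longest run of C and T of at least 8 bases.
Rpl11, chr4:136053364-136053423, minus strand: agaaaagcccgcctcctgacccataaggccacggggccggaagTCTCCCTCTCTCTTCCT
Rpl4, chr9:64173357-64173416, plus strand: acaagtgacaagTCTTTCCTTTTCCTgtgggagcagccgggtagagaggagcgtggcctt
Rpl19, chr11:98026894-98026953, plus strand: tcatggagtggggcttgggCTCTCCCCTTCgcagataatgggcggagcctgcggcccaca
Rpl35, chr2:39005102-39005161, minus strand: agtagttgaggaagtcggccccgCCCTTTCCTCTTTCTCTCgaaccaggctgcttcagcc
Rpl13, chr8:123102320-123102379, plus strand: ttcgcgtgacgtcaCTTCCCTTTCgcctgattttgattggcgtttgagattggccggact
Rpl36al, chr12:69184038-69184097, minus strand: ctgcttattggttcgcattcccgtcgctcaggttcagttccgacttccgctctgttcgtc
The 5 lower genes shown are those of smallest adjusted p whose window held such a run, so their runs of 10 to 18 bases follow from the choice. Rpl36al was taken without that condition, and its window held none. The contrast between them therefore says nothing about the calls. The run of Rpl35 spanned the annotated start. Those of Rpl4, Rpl13 and Rpl19 lay before it and that of Rpl11 after it, so these windows do not show an mRNA that begins with the marked run. The run of Rpl11 ended at the edge of the window, so its full length was not measured.

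Of the 46 canonical genes, 34 had a start in the RefSeq table, with 40 windows in all because some have several starts. A run of at least 8 C or T lay within 30 bases of the start on the transcribed strand in 22 of the 40 windows (55%), against 22.9% of all 32851 windows. The same run was found in 11 of the 20 windows of genes called lower and in 11 of the 20 windows of other canonical genes, so the calls did not separate by it. Over 300 bases (250 before and 50 after the start, both strands), the ETS family core CCGGAAG was in 14 windows (35%, against 8.86% of all). The E-box CACGTG was in 7 (17.5%, against 7.15%), and the YY1 core AAGATGG in 6 (15%, against 6.34%). The NRF1 site was in 2 (5%, against 0.971%) and the TATA box TATAAA in 4 (10%, against 13.6%). These are matches of letters, not measured binding.

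Large subunit mRNAs were on the whole slightly lower in the libraries labelled KO. Of 52 genes that passed edgeR's filter on low counts, 21 were called lower (40.4%, against 5.67% of the 16256 tested genes) and 1, Rpl36al, was called higher (1.92%, against 7.01%), at an adjusted p under 0.05. The fold change was below 0 for 45 of the 52 (86.5%, against 50.7% of all tested genes), and its median was -0.14 on the log2 scale, a ratio of 90.8%, against -0.0049 over all tested genes. The 21 genes had 62.3% to 92.5% of their WT level. The count of 21 was 13 without the first library labelled KO, 12 without the third, and 13 without the third WT library.

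Deeply counted genes are called more readily, and these genes are deeply counted. Among the 1234 tested genes with a mean count of 8498 to 25094, the interquartile range of the tested members, 18.7% were called lower and 19.3% higher. The 26 members in that range had 15 called lower (57.7%) and 0 higher in edgeR. At an unadjusted p under 0.05 they were 19 lower and 0 higher. DESeq2 called 17 lower and 1 higher, and limma 10 lower and 0 higher. Over all genes edgeR made 2060 calls, DESeq2 2791 and limma 1916 (on log2 of FPKM plus 0.1). For counts at an unadjusted p, here and below, the share of all tested genes was not computed. Nor was it computed by direction for DESeq2 or limma, over all genes or in this range of counts. FPKM in every library labelled KO was below that in every WT library for 31 of the 52 members (59.6%, against 14.6% of tested genes) and above it for 3 (against 19.1%).

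Together the 54 genes took 1.26%, 1.28% and 1.25% of all estimated counts in the libraries labelled KO, and 1.39%, 1.37% and 1.38% in WT libraries. The means were 1.26% ± 0.0141 in libraries labelled KO and 1.38% ± 0.00786 in WT (SD, n = 3 each), a ratio of 0.917, and the libraries of the groups did not overlap. As a share of summed FPKM the ratio was 0.959. In bulk RNA, fewer cells of a type and less of an mRNA in each cell cannot be told apart.

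**Figure D1:**
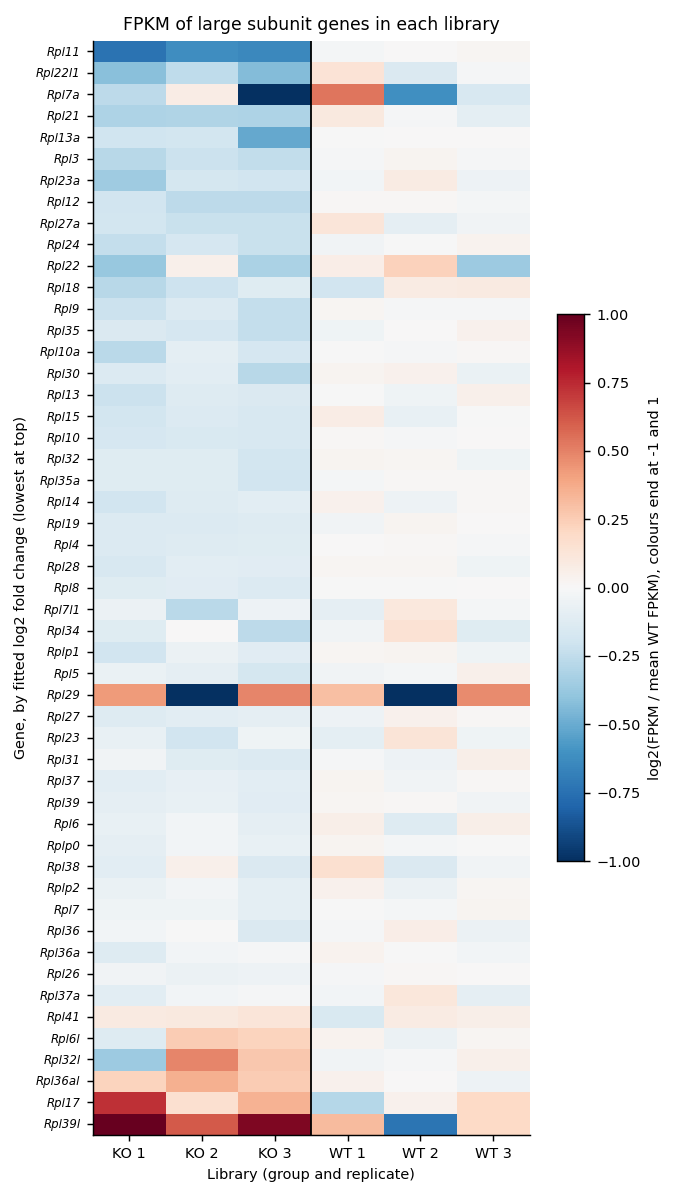
FPKM of 51 of the 52 tested large subunit genes in each library (1 uncalled gene left off), as log2 of the ratio to the mean of the WT libraries, with libraries labelled KO on the left and WT on the right and genes ordered by fitted log2 fold change. Rpl11 is the darkest even row among the 3 libraries labelled KO, most rows are faintly blue there, and Rpl29, Rpl7a, Rpl17 and Rpl22 vary as much within groups as between them.

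The 5S particle, in which Rpl5 and Rpl11 carry 5S ribosomal RNA into the subunit, held the largest called change. Rpl11 (chromosome 4, 136028265 to 136053428, minus strand, mm10) had 54.8, 59.5 and 58.6 FPKM in libraries labelled KO, against 90.02, 91.9 and 92.5 FPKM in WT libraries. The groups lay far apart, and each was tight. The log2 fold change was -0.68 (SE 0.0368, 95% limits -0.77 and -0.59, edgeR adjusted p = 0.000175), which was more than double the next called one in size, -0.32 for Rpl21. Rpl5, its partner, had 95.6, 94.1 and 88.3 FPKM in libraries labelled KO and 97.8, 98.7 and 103 FPKM in WT libraries. The groups did not overlap, but the change of -0.13 (SE 0.0367) missed the threshold (edgeR adjusted p = 0.0788). The 95% limits of the 2 genes did not meet, and the difference between them was not tested. Dipk1a, which overlaps Rpl5 on the other strand, was higher in libraries labelled KO (0.41, edgeR adjusted p = 0.0306). Free Rpl5 and Rpl11 bind Mdm2, the ubiquitin ligase of p53.

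All 4 genes of proteins that reach towards the catalytic centre were called lower, against 40.4% of all tested members and 5.67% of all tested genes. Sites were grouped by hand with earlier results of these data known, and differences between sites were not tested. Rpl3, whose protein extends a loop to the centre, had 109, 114 and 111 FPKM in libraries labelled KO, against 131, 134 and 131 FPKM in WT libraries (log2 fold change -0.26, SE 0.024, edgeR adjusted p = 0.00131). Rpl4, which also forms the tunnel's constriction, had 361, 362 and 364 FPKM in libraries labelled KO, against 398, 401 and 393 FPKM in WT libraries (-0.15, SE 0.0145, edgeR adjusted p = 0.00163). Neither gene's groups overlapped. Rpl10, one of the last proteins to join the subunit, had 121, 123 and 122 FPKM in libraries labelled KO, against 137, 135 and 136 FPKM in WT libraries (-0.18, SE 0.0198, edgeR adjusted p = 0.00278). Rpl8, whose protein binds RNA close to the centre, had 276, 279 and 274 FPKM in libraries labelled KO, against 300.3, 301 and 302 FPKM in WT libraries (-0.14, SE 0.0167, edgeR adjusted p = 0.0034). These shifts are small, but the libraries of a group differed by less. Syngr1, which overlaps Rpl3 on the other strand, was itself lower in libraries labelled KO (log2 fold change -0.47, edgeR adjusted p = 0.00215), with a mean count of 2324 beside 30626 for Rpl3, and reads of the 2 strands cannot be told apart here.

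The stalk that recruits elongation factors gave 1 call in 4 genes, where 40.4% of all tested members were called lower. Rpl12, at the base of the stalk, had 42.9, 40.9 and 40.9 FPKM in libraries labelled KO and 49.3, 49.3 and 48.2 FPKM in WT libraries (log2 fold change -0.25, SE 0.0294, edgeR adjusted p = 0.00324). Proteins of the stalk proper were not called. Rplp1 was the most abundant of all members, with 892, 980.2 and 944 FPKM in libraries labelled KO and 1034, 1039 and 991 FPKM in WT libraries (-0.14, SE 0.0385, edgeR adjusted p = 0.0684). Rplp0, the scaffold of the stalk, had 475, 495 and 479 FPKM in libraries labelled KO and 515, 498 and 503 FPKM in WT libraries (-0.08, SE 0.0213, edgeR adjusted p = 0.0551). Both sets of libraries kept apart, for Rplp0 only by a narrow gap. Rplp2, the dimer partner of Rplp1, overlapped between groups, with 68.0, 69.9 and 66.8 FPKM in libraries labelled KO and 73.5, 68.3 and 72.1 FPKM in WT libraries (-0.08, edgeR adjusted p = 0.228). Rpl10a, the mobile L1 stalk through which empty tRNA leaves, had 73.1, 82.2 and 78.3 FPKM in libraries labelled KO and 88.0, 87.2 and 89.0 FPKM in WT libraries (-0.19, SE 0.044, edgeR adjusted p = 0.0356). The libraries labelled KO varied more than WT here, all on the low side, and the call was lost without the third library labelled KO or any 1 of the WT libraries (largest adjusted p 0.107).

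At the exit tunnel, 3 of 7 genes were called lower, close to the share among all tested members (40.4%). Rpl19, which also bridges to the small subunit, had 471, 472 and 474 FPKM in libraries labelled KO, against 507, 528 and 521 FPKM in WT libraries (log2 fold change -0.15, SE 0.0205, edgeR adjusted p = 0.00551), with no overlap. The row Gm27597 lies within Rpl19 and fell with it (-0.12, edgeR adjusted p = 0.0457). Rpl35 (-0.20, edgeR adjusted p = 0.0131) sits beside the exit where signal recognition particle binds, and lost its call without the second WT library (adjusted p = 0.0505). Rpl23a (-0.25, edgeR adjusted p = 0.0397) is a docking protein there, and lost its call whichever library was left out (adjusted p 0.066 to 0.11). Its change was smaller when its copies were added, as described below. Rpl39, a small protein within the tunnel, had 51.4, 51.7 and 50.4 FPKM in libraries labelled KO and 55.2, 55.1 and 53.4 FPKM in WT libraries. Its groups did not overlap, but it was not called (-0.11, SE 0.0323, edgeR adjusted p = 0.0813). Rpl26 and Rpl31 were not called either, at -0.07 and -0.11, and Rpl17 is described with its copies below.

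Among the 28 other canonical genes, 11 were called lower, close to the share among all tested members (40.4%). Their FPKM means lay between 17.4 and 308 over all libraries. Rpl24, which bridges to the small subunit, had 192, 201 and 195 FPKM in libraries labelled KO, against 221, 225 and 232 FPKM in WT libraries (log2 fold change -0.22, SE 0.0299, edgeR adjusted p = 0.0052). Rpl9 had 58.8, 62.2 and 57.7 FPKM in libraries labelled KO, against 69.3, 67.9 and 67.6 FPKM in WT libraries (-0.21, SE 0.0333, edgeR adjusted p = 0.00937). For both, the highest library labelled KO was below the lowest WT library. Rpl21 had 15.5, 15.6 and 15.5 FPKM in libraries labelled KO and 20.6, 19.1 and 18.0 FPKM in WT libraries (-0.32, SE 0.0541, edgeR adjusted p = 0.0126). Its call was lost without the first library labelled KO (adjusted p = 0.053) and when its copies were added, as described below. The other calls were Rpl32, Rpl13, Rpl35a, Rpl28, Rpl37, Rpl15, Rpl27a and Rpl14, at -0.22 to -0.11, and each of these 8 lost its call in 3 to 6 of the 6 fits that left out 1 library.

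Some genes with uses outside the ribosome, or with effects on particular mRNAs, were not called. Rpl13a, known from human monocytes to leave the ribosome after interferon gamma and silence inflammatory mRNAs, had 164, 165 and 131 FPKM in libraries labelled KO and 187, 188 and 188 FPKM in WT libraries. All 3 libraries labelled KO were lower, the third most of all. The change of -0.31 (SE 0.085) missed the threshold (edgeR adjusted p = 0.0666), and without the third library labelled KO it was -0.21 with an adjusted p of 0.00506. Rpl38, needed in mouse embryos for translation of Hox mRNAs, had 139.9, 156 and 136 FPKM in libraries labelled KO and 168, 136 and 147 FPKM in WT libraries, with broad overlap (-0.08, edgeR adjusted p = 0.634). Rpl22, needed for T cell development in mice, had 26.6, 36.0 and 27.8 FPKM in libraries labelled KO and 36.4, 40.7 and 27.0 FPKM in WT libraries, again with overlap (-0.22, SE 0.176, edgeR adjusted p = 0.503). Rpl41 was on the high side in libraries labelled KO without a call (0.08, edgeR adjusted p = 0.449).

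**Figure D2:**
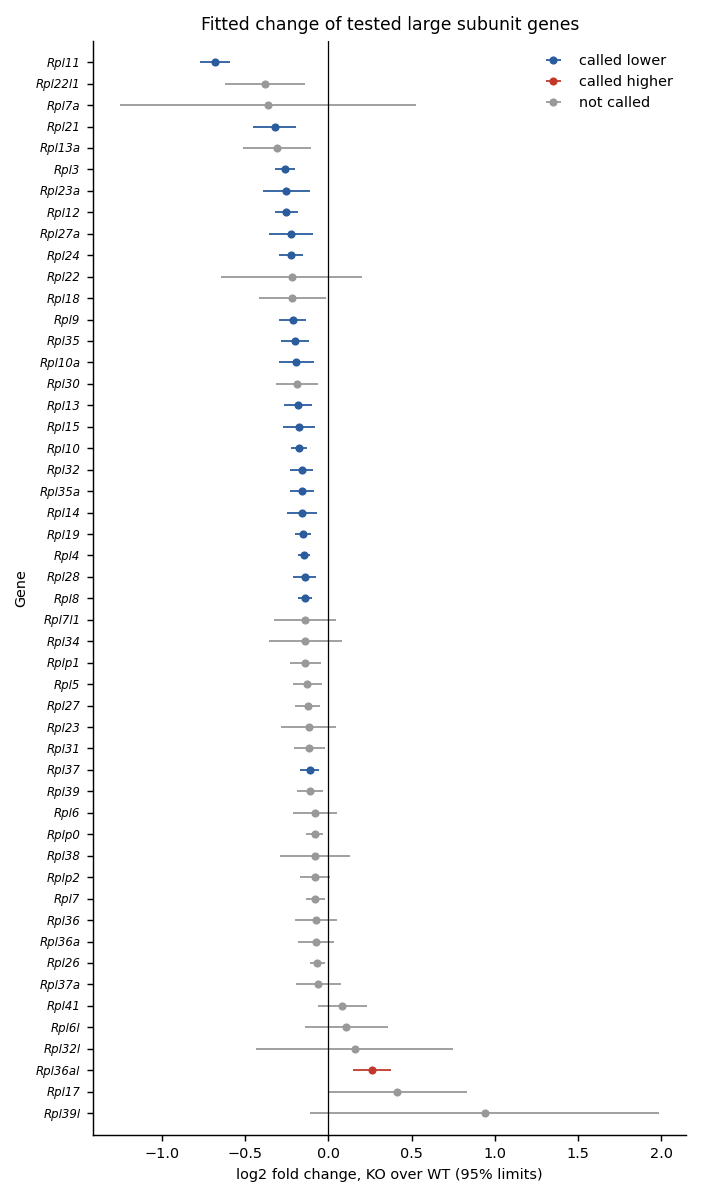
Fitted log2 fold change, libraries labelled KO over WT, with 95% limits from edgeR for 50 of the 52 tested genes (Rpl29, whose limits are -2.71 and 2.46, and 1 uncalled gene are left off), coloured by call. The 21 genes called lower (blue) lie between -0.68 and -0.11, and Rpl36al at 0.26 is the 1 gene called higher (red).

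Of the 4 tested paralogs, 1 was called, and it was higher in libraries labelled KO, where 7.01% of all tested genes were called higher. Rpl36al, close kin of Rpl36a, had 80.0, 88.0 and 81.9 FPKM in libraries labelled KO, against 70.8, 68.9 and 66.2 FPKM in WT libraries (log2 fold change 0.26, SE 0.0472, edgeR adjusted p = 0.0158). Its groups were clearly apart, although the adjusted p was 0.0552 without the second WT library and 0.0548 without the third. Rpl36a had 34.2, 36.7 and 37.1 FPKM in libraries labelled KO and 38.3, 37.3 and 36.6 FPKM in WT libraries (-0.07, edgeR adjusted p = 0.377). The 95% limits of Rpl36al (0.15 and 0.38) and of Rpl36a (-0.18 and 0.04) did not meet, and the difference itself was not tested. Rpl22l1, the paralog that Rpl22 represses in mice, had 3.52, 3.94 and 3.48 FPKM in libraries labelled KO and 5.17, 4.27 and 4.68 FPKM in WT libraries. The groups did not overlap, and the change of -0.38 (SE 0.101) narrowly missed the threshold (edgeR adjusted p = 0.0568).

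The remaining paralogs were low or steady. Rpl7l1, which resembles Rpl7, had 19.1, 16.5 and 19.2 FPKM in libraries labelled KO and 18.7, 21.4 and 19.6 FPKM in WT libraries (log2 fold change -0.14, edgeR adjusted p = 0.323). Rpl7 had 139, 139 and 134 FPKM in libraries labelled KO and 143, 141 and 146 FPKM in WT libraries (-0.08, edgeR adjusted p = 0.0888). Both stayed below the threshold for a call, Rpl7l1 with overlap. Rpl39l, a form of Rpl39 known from testis, rested on counts of 36, 20 and 27 in libraries labelled KO and 16, 9 and 14 in WT libraries, which are estimates and not tallies of reads. Its FPKM stayed at or under 0.510, and its change of 0.94 was not called (SE 0.437, edgeR adjusted p = 0.234). Rpl3l, the striated muscle form of Rpl3, had counts of 17, 0 and 0 in libraries labelled KO and 0, 0 and 4 in WT libraries. Rpl10l, the testis form of Rpl10, was at 0 in all 6, and both were too low to be tested. The processed pseudogene rows Rpl6l and Rpl32l were not called (0.11 and 0.16).

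A few canonical genes varied far more between replicates than the rest. The median coefficient of variation of canonical genes was 2.94% in libraries labelled KO and 2.93% in WT. Rpl17 had 114, 76.6 and 87.3 FPKM in libraries labelled KO and 56.4, 70.5 and 78.8 FPKM in WT libraries (log2 fold change 0.42, SE 0.174, edgeR adjusted p = 0.192), a change that DESeq2 called higher (adjusted p = 0.0444). Rpl7a had 67.7, 85.7 and 38.6 FPKM in libraries labelled KO and 118, 53.3 and 72.6 FPKM in WT libraries (-0.36, SE 0.37, edgeR adjusted p = 0.607). Libraries of the same label differed by more than 2-fold for Rpl7a, and groups overlapped for both. Rpl7a and Rpl29 were singled out after their values were seen.

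Many large subunit genes have annotated rows of near-identical sequence. Annotated pseudogene transcripts of at least 150 aligned bases and 90% identity were assigned to the member they resembled most, which gave 765 copies for 48 members. The pseudogene rows Rpl6l and Rpl32l are members themselves, so neither was added to another gene. As an example of how little separates them, the coding sequence of Rpl7a (chromosome 2) and Rpl7a-ps11 (chromosome X) differed at 2 of 801 aligned bases. Bases 181 to 240 of that alignment, from GENCODE M21 transcripts, are shown with the differing base in capitals, A186G counted from the first base of the coding sequence.
Rpl7a: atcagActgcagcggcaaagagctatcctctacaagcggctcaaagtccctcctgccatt
Rpl7a-ps11: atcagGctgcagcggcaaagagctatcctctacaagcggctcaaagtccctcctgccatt
Fragments from most of this stretch are the same in both rows. Rpl7a-ps11 alone held counts of 9567, 9775 and 12023 in libraries labelled KO and 9281, 11840 and 11557 in WT libraries, beside 10159, 11722 and 6033 in libraries labelled KO and 15924, 7271 and 9944 in WT libraries for Rpl7a.

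Adding the copies' counts to each gene, an alternative chosen after seeing the data, steadied 2 of the 4 genes that varied most, Rpl17 and Rpl7a. For Rpl17 the coefficient of variation was then 2.74% in libraries labelled KO and 3.29% in WT, against 20.2% and 16.3% for its own row, and the log2 fold change turned to -0.11 (edgeR adjusted p = 0.0766). For Rpl7a it was 5.61% in libraries labelled KO and 3.27% in WT, against 37.2% and 41.0%, and the gene was called lower (-0.23, edgeR adjusted p = 0.0168). The high Rpl17 of its own row in libraries labelled KO was therefore not seen in the pooled row. Rpl21, where 81.9% of pooled counts lay in copies, moved the other way, to -0.05 (edgeR adjusted p = 0.359). Rpl23a, with 42.0% in copies, moved from -0.25 to -0.12 and stayed called lower (edgeR adjusted p = 0.0234). Whether such copies are transcribed or only share reads with the gene was not tested.

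**Figure D3:**
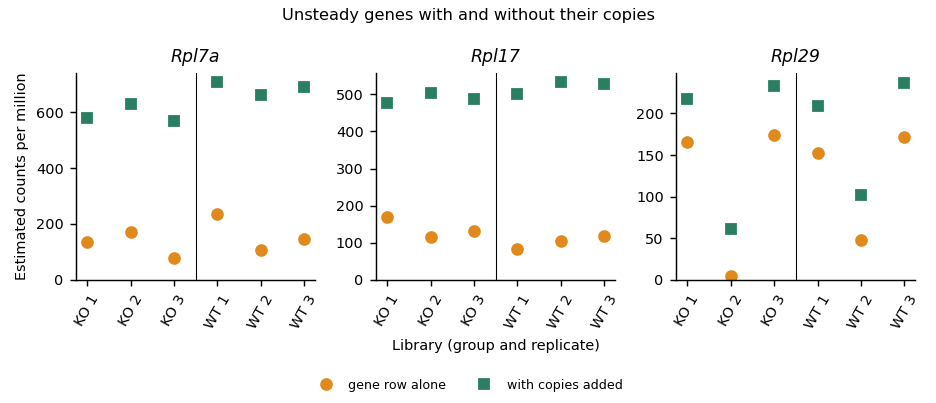
Estimated counts, scaled to each library's total, for Rpl7a, Rpl17 and Rpl29 in each library, with libraries labelled KO on the left and WT on the right, for the gene's own row (circles) and with its matched copies added (squares). The squares of Rpl7a and Rpl17 vary little within each label where the circles scatter, whereas Rpl29 is low in the second library of each label in both.

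Rpl29 did not steady. It had 132, 3.88 and 138 FPKM in libraries labelled KO and 121, 37.7 and 136 FPKM in WT libraries, and counts with its copies were 16340, 4144 and 18154 in libraries labelled KO and 14028, 6928 and 16252 in WT libraries. The second library of each label was low, so no change could be read for this gene (log2 fold change -0.12, SE 1.08, edgeR adjusted p = 0.96). Rpl22 had few copy counts (0.537% of the pooled total) and stayed as variable as before, at 17.1% in libraries labelled KO and 20.3% in WT.

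Over all members, pooling left the general picture in place. With copies added, 25 of 52 were called lower (48.1%, against 5.93% of 15966 tested rows) and 1 higher (against 7.19%), 18 of the 21 earlier calls remained, and the median log2 fold change was again -0.14. Rpl21, Rpl15 and Rpl27a lost their calls, and Rpl27, Rplp0, Rpl30, Rpl31, Rpl23, Rpl6 and Rpl7a gained one. The pool of Rpl6 did not hold Rpl6l, a row with a mean count of 3341 and an uncalled log2 fold change of 0.11. Rpl11, with 9.49% of pooled counts in copies, stayed the largest called change at -0.62 (edgeR adjusted p = 9.27e-05). Of canonical genes with under 10% of counts in copies, 9 of 21 were called lower in the first fit, and of those with 10% or more, 12 of 25. All 4 genes of the catalytic centre stayed lower.

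**Figure D4:**
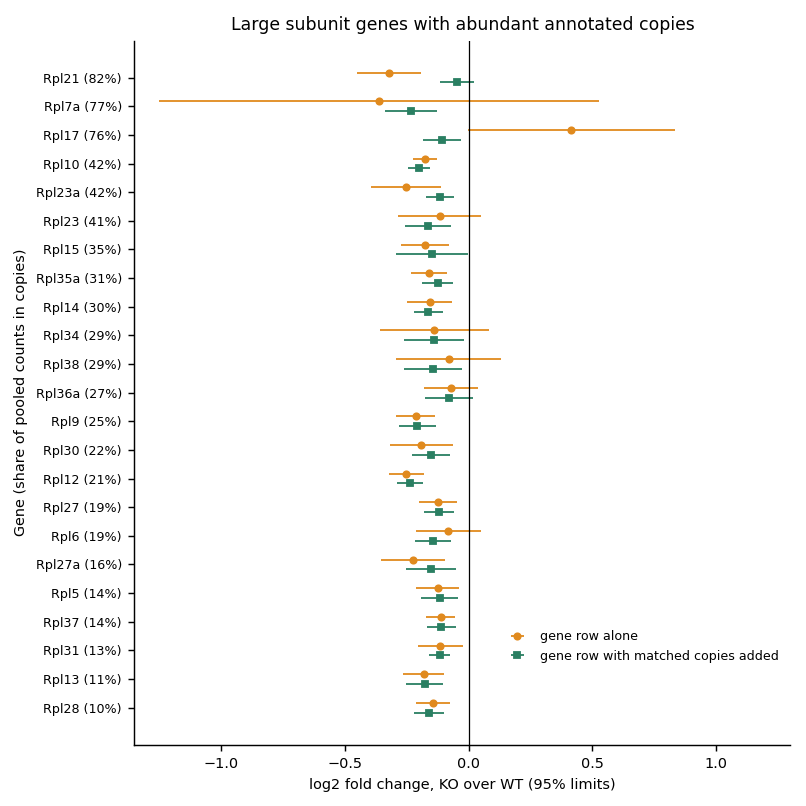
Log2 fold change, libraries labelled KO over WT, with 95% limits, of 23 canonical genes with at least 10% of their pooled counts in copies (Rpl29 and 1 uncalled gene left off), for the gene's own row (circles) and with copies added (squares). Pooling narrows the limits of Rpl7a and Rpl17 most, carries Rpl17 from 0.42 to -0.11, and carries Rpl21 from -0.32 to -0.05.

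Levels of mRNA for these proteins, most of them present once in each ribosome, were not equal. Mean FPKM of the canonical genes spanned 60.4-fold in libraries labelled KO and 53.2-fold in WT libraries, with Rplp1 highest and Rpl21 lowest, and part of a low level can lie in copies. Across the 46 canonical genes, the log2 fold change had a Spearman correlation of 0.304 with log2 mean FPKM, -0.283 with transcript length and -0.125 with the share of counts in copies. Pearson's r was 0.197, -0.063 and 0.070 for the same measures in that order, and the Spearman values with the pooled fold change were 0.216, -0.253 and 0.0062. The value for the share of counts in copies changed sign between these measures. These are descriptions over genes that share the same 6 libraries.

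Small subunit genes and other TOP genes had medians below 0 as well. Of 33 small subunit genes, 11 were called lower and 0 higher by edgeR (33.3% lower, against 5.67% of tested genes lower and 7.01% higher). Among all tested genes in the interquartile count range of the large subunit genes, 18.7% were called lower. No such share was computed for the count range of the lists here or below. Of the 33 genes, 31 were below 0, and the median log2 fold change was -0.12. At an unadjusted p under 0.05, 20 were lower and 0 higher. DESeq2 called 14 lower and 0 higher, and limma 10 lower and 0 higher. Those with the smallest adjusted p were Rps15 (-0.22, edgeR adjusted p = 0.00418), Rps3a1 (-0.16, adjusted p = 0.0046), Rps26 (-0.18, adjusted p = 0.00536) and Rps10 (-0.16, adjusted p = 0.00824). No small subunit gene thus reached the size of Rpl11 among the calls. Of 18 other TOP genes, mostly translation factors, 7 were called lower by edgeR (38.9%, against 5.67%) and all 18 were below 0, with a median of -0.11. DESeq2 called 7 of them lower and limma 6, and none was higher in either or at an unadjusted p under 0.05. They included Tpt1, the translationally controlled tumour protein (-0.17, edgeR adjusted p = 0.000467), Pabpc1, the poly(A)-binding protein (-0.17, adjusted p = 0.000855), the elongation factor Eef2 (-0.10, adjusted p = 0.00169) and the initiation factor subunit Eif3f (-0.17, adjusted p = 0.0101).

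Lists of genes that build ribosomes had medians near 0, and that of regulators of TOP mRNAs had a median above 0. Of 39 ribosome biogenesis genes, 2 were called lower (5.13%, against 5.67% of tested genes) and 1 higher (2.56%, against 7.01%) by edgeR, with a median of 0.00. These shares are at or below those of all genes. The calls were Heatr1, a processome subunit (-0.13, edgeR adjusted p = 0.0266), Gnl3, a nucleolar GTPase (-0.58, adjusted p = 0.0283), and Mdn1, which strips assembly factors from the pre-60S particle (0.21, adjusted p = 0.0411). Of 20 genes of RNA polymerase I and 5S transcription, 0 were lower and 2 higher in edgeR (10% higher, against 7.01% of tested genes) and in DESeq2, with 1 lower and 3 higher at an unadjusted p under 0.05. The calls were Ubtf, the ribosomal DNA binding factor (0.25, edgeR adjusted p = 0.0197), and the polymerase I subunit gene Twistnb (0.18, adjusted p = 0.0493). Of 23 regulators of TOP mRNAs, including Larp1 (0.21, edgeR adjusted p = 0.0597) and Mtor (0.15, adjusted p = 0.113), only Cnbp was called, lower at -0.17 (adjusted p = 0.0266), and the list's median was 0.08, with 7 of 23 below 0. At an unadjusted p under 0.05, 1 of these regulators was lower and 7 were higher, with no share of all genes at that threshold to set beside them. Of 14 ribosome quality control genes, 1 was called higher by edgeR (7.14%, against 7.01% of tested genes), Huwe1, a ubiquitin ligase (0.15, adjusted p = 0.0165). DESeq2 called 1 lower and 2 higher, and limma 0 lower and 1 higher.

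The surveillance list around Mdm2 and p53 holds neither Rpl5 nor Rpl11. In it, 4 of 13 genes were called lower by edgeR (30.8%, against 5.67% of tested genes), 6 by DESeq2 and 5 by limma. None was higher in any of these tools (against 7.01% in edgeR) or at an unadjusted p under 0.05. All 13 were below 0, and the median log2 fold change was -0.15. Cdkn1a, the cell cycle inhibitor p21, had a change of -0.29 (edgeR adjusted p = 0.000673). Mdm2 had -0.24 (adjusted p = 0.0118), the p53 target Phlda3 -0.45 (adjusted p = 0.0298), and Bbc3, which encodes the death protein Puma, -0.40 (adjusted p = 0.0305). Trp53 itself was not called (-0.19, adjusted p = 0.0863).

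**Figure D5:**
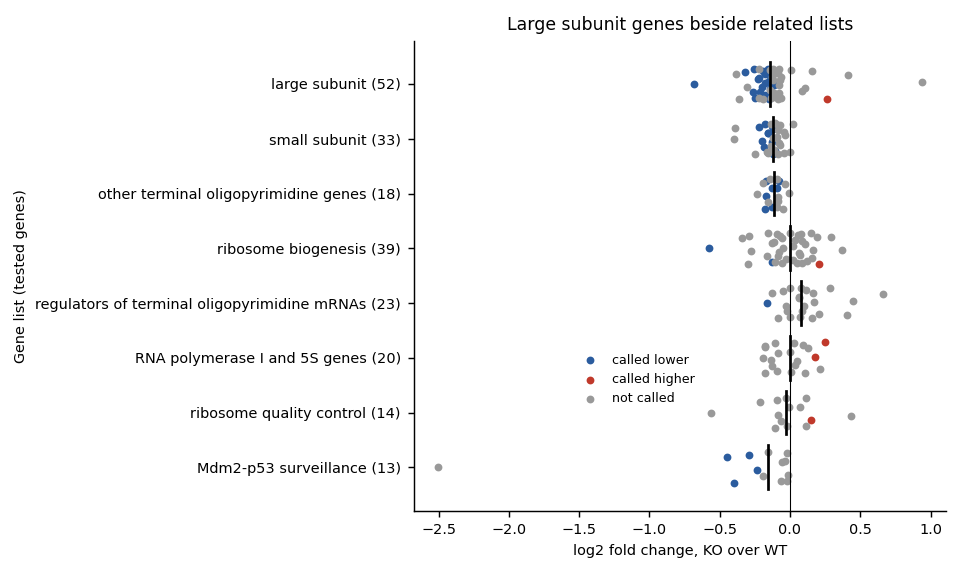
Log2 fold change, libraries labelled KO over WT, of tested genes in the large subunit and 7 related lists, coloured by call, with each list's median as a black bar. The bars of the large subunit (-0.14), small subunit (-0.12) and other TOP genes (-0.11) lie left of 0, while those of biogenesis and RNA polymerase I genes lie at 0.00.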

How the data were processed

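RNA sequencing of 6 libraries was deposited as 1 table of 55401 genes. The labels' protocols describe reverse transcription of fragmented poly(A) RNA. The submitters' processing notes name StringTie 1.3.4d, HISAT2 2.0.4, cutadapt 1.9 and the build mm10. Settings, strand and annotation release are not stated there. Per the file headers, each library has an FPKM value, which the authors scaled for length and depth, and a count. The deposited counts are whole-number estimated counts. A gene with a count of 0 carries an FPKM of 0.0001, and 36.9% to 40.4% of the counts from 1 to 20 are multiples of 4, so low counts are not tallies of reads.

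Rounded estimated counts went into edgeR 4.0.16 under R 4.3.3 (TMM factors, filterByExpr with minimum count 10 and total 15, quasi-likelihood test), labelled KO against WT on all genes, with Benjamini-Hochberg adjustment over 16256 tested genes. The F statistic gave each fold change its standard error. A call needed an adjusted p under 0.05 and no particular fold. The script was tested on simulated data. With 3 libraries against 3, an exact two-sided permutation test of FPKM cannot go below p = 0.1, so no single gene can pass by it alone. Alternatives used DESeq2 1.42.0, limma 3.58.1 on log2 FPKM, other scalings and filters, the replicate number as a block, and each library left out. Copies were matched with blastn 2.17.0 to GENCODE M21 transcripts, with at least 50% of the copy aligned. All 54 members were in that release, 46 with the same coordinates, and coordinates of genes are those of the deposited table.

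Values of every library were given for the 10 calls with the smallest adjusted p, the 4 largest changes and the 3 highest levels. They were also given for some genes of named functional sites and for the paralogs with their kin. From each related list up to 4 called genes by adjusted p were named, with fold change and adjusted p only. The members, lists and this rule were chosen with earlier results of these data known. Of the tested members, 1 uncalled gene enters the counts but is not reported here by itself.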

Additional observations from a re-analysis of the deposited data

How the results depend on the processing

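The direction of the shift held throughout: the median log2 fold change of the large subunit genes was below 0 in all 18 alternatives, at -0.12 with plain library totals, -0.16 with upper-quartile scaling and -0.15 to -0.14 with 1 library left out. The count of 21 called lower was 28 with a filter on mean FPKM of at least 1, 26 with DESeq2 and 16 with limma. It was 25 with copies added, 15 with plain totals and 31 with upper-quartile scaling. Leaving out 1 library gave 12 to 17 (13 without the first and 12 without the third library labelled KO, 13 without the third WT library). It gave 0 to 1 called higher, where DESeq2 called 2, 15 to 20 calls in the related lists (29 with all libraries) and 1244 to 1339 over all genes (2060 with all libraries), with fewer samples in each fit. The 9 genes Rpl3, Rpl4, Rpl8, Rpl9, Rpl10, Rpl11, Rpl12, Rpl19 and Rpl24 kept their call in all 18 alternatives. Over all tested genes, libraries of the same number did not deviate together (correlations -0.0205, -0.0144 and 0.0153 of deviations from the group means). Such a correlation cannot show whether equal numbers share a mouse or a batch. Rpl29 was low in the second library of each label. With the replicate number as a block, 12 large subunit genes were called lower and 0 higher. That fit had 12 calls in the related lists and 1012 over all genes. The ratio of the members' shares was 0.959 on summed FPKM, against 0.917 on counts. No called gene changed sign. Uncalled genes named here that did were Rpl17 (-0.10 with the rows named as its pseudogenes added, -0.11 with all copies), and, with 1 library left out, Rpl29 (-0.55 to 0.44), Rpl7a (-0.63 to 0.0066), Rpl38 (-0.15 to 0.0065) and Rpl32l (-0.025 to 0.37). The cause was not tested. Low counts limit Rpl3l, Rpl10l and Rpl39l.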
